A study of Mus musculus with 2 samples.

Results

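The replication licensing genes were followed in 4T1 cells, a murine mammary carcinoma line, after treatment with astragalin (AS), a plant flavonoid. The genes were set by name. They are Mcm2, Mcm3, Mcm4, Mcm5, Mcm6, Mcm7, Cdc6, Cdt1, Orc1 and Gmnn, and all 10 were among the 14197 genes of the deposited table. The study made 1 RNA-seq library from wild-type 4T1 cells given 20 μM AS for 24 h and 1 from the same line given vehicle. With 1 library per condition, no difference below has a replicate check, no p-value is given, and each interval covers counting error alone. A difference between dishes other than AS cannot be told apart from AS.

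Licensing prepares chromosomes for DNA replication. The origin recognition complex, of which ORC1 is a subunit, marks the origins. CDC6 binds to it, and CDT1 then brings the MCM helicase, a ring built of MCM2 to MCM7, onto the DNA. Geminin, the product of Gmnn, binds CDT1 after the start of S phase and keeps origins from being licensed again. Many of these genes are known targets of the E2F transcription factors and are transcribed from late G1 into S phase. In a bulk library, fewer cells in such a phase and less RNA per cell cannot be told apart.

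Promoter sequences of the licensing genes were read first, because E2F factors bind short sites near the start of many S-phase genes. RefSeq promoter windows (GRCm38.p6, from 250 bases before to 50 bases after the start) were found for 8 of the 10 genes. The E2F letters searched, on both strands, were TTTGGCGC, TTTGCCGC, TTTCGCGC and TTTCCCGC. A match was found in 7 of the 8 genes, namely Orc1, Cdc6, Cdt1, Mcm3, Mcm5, Mcm6 and Mcm7. Of all 32851 promoter windows, 2.26% held a match, and of the 12391 windows of genes that the table lists, 4.04% did. Counted per gene, as the licensing genes are, 475 of 9680 listed genes with a window (4.91%) held a match. With bases before the start alone, matches were found in 5 of the 8 genes, beside 1.86% of all windows and 3.35% of those of listed genes. A match is a description of letters and does not show that a factor binds there.

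The Mcm5 and Mcm6 stretches below show the upstream arrangement in which E2F letters lie near CCAAT boxes. The Mcm2 stretch comes from the 1 gene that has a window but no E2F letters in it. Capitals mark E2F matches and CCAAT on either strand, and each stretch is written 5′ to 3′ on the strand of the gene and ends at the base before the start. On the chromosome they lie at chr1:128359706-128359835 (minus strand), chr8:75109339-75109508 (plus strand) and chr6:88898781-88898960 (minus strand). In Mcm6 and Mcm5 pairs of E2F words overlap.
Mcm6: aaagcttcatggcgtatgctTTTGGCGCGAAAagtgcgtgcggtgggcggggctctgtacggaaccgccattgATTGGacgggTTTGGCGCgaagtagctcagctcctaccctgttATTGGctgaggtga
Mcm5: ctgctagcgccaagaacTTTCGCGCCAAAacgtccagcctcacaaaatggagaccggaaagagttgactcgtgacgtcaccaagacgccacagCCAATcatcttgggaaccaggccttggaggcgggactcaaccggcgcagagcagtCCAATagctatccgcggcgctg
Mcm2: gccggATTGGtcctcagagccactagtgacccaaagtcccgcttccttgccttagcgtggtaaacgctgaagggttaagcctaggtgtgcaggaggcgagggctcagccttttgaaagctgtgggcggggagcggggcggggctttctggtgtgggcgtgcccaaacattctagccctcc

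For the other genes 30 bases around 1 match are shown, with the E2F letters in capitals. Counted from the start, with negative numbers before it, the Orc1 site begins at base -27 and the Cdc6 site at base -138. The Mcm3, Cdt1 and Mcm7 sites shown begin at bases 39, 33 and 17, and Mcm7 has another match that begins at base -165. The RefSeq starts of Orc1, of Cdc6 and of the Mcm7 window shown lie inside the longer genes of the GENCODE M21 annotation, as do the sites given for them. Mcm7 has another RefSeq window, which held no E2F match. In the order shown, the stretches lie at chr4:108579416-108579445 (plus), chr11:98908002-98908031 (plus), chr1:20820263-20820292 (minus), chr8:122568035-122568064 (plus) and chr5:138171849-138171878 (minus).
Orc1: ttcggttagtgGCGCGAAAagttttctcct
Cdc6: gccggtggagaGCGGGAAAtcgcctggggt
Mcm3: cgggaaaacttgggaagtTTTGGCGCcaag
Cdt1: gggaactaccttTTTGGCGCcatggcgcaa
Mcm7: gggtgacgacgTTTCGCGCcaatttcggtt

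The windows of the same 8 genes were searched on both strands for other short words. The licensing genes are counted per gene here and the shares beside them per window. The CCAAT box was found in 6 of the 8 genes, beside 37.8% of the windows of genes in the table. The Sp1 letters GGGCGG were found in 6 genes, beside 62.4%. The CHR is an element known from genes transcribed in G2 and M phase, and its letters TTTGAA, or with another base in the middle of the word TTCGAA, were found in 2 genes, Mcm2 and Mcm7, beside 14.2%.

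Levels are given as RPKM, the number of reads per kilobase of summed exon length, scaled to the reads of the library. The AS library held 44820055 reads on the listed genes and the vehicle library 50723555. The log2 fold change is that of AS over vehicle with 0.1 RPKM added to both values, and its 95% Clopper-Pearson interval was taken from the reads of the gene in both libraries. Over the whole table this value had a median of 0.07 and lay above 0 for 60.9% of genes. All 9 epithelial marker genes searched for were listed, among them Epcam at 335 RPKM with AS and 357 with the vehicle, and 7 of the 9 were below 0. Krt19 differed most of them, at 136 and 226 RPKM, and the keratins Krt7, Krt8 and Krt18 were also lower, with log2 fold changes of -0.52, -0.54 and -0.35. Cldn4 and Cdh1 were higher, with log2 fold changes of 0.42 and 0.17. Of 11 leukocyte, endothelial and fibroblast markers 6 were listed, and Adgre1, Cd3e, Pecam1, Cdh5 and Dcn were not. Of these 6, Cd68 was below 0 (24.0 RPKM with AS and 28.1 with the vehicle, log2 fold change -0.23) and 5 were above 0. Col1a1 and Col3a1, at 0.896 and 0.590 RPKM with AS, both had a log2 fold change of 0.30 with an interval above 0 as deposited. The intervals of Ptprc, Csf1r and Pdgfra, at 0.116, 0.378 and 4.24 RPKM with AS, include 0. Summed RPKM came to 1855 (AS) and 2359 (vehicle) over the epithelial list, and 30.2 and 33.9 over the other list, of which Cd68 makes up the greater part. The part of these differences in the results below was not tested.

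All 10 licensing genes had a lower RPKM in the AS library. Their median log2 fold change was -0.58, and 5 of them, Cdc6, Orc1, Mcm2, Mcm4 and Mcm3, were lower by at least 1.5-fold (with 0.1 RPKM added), the smaller of the fold thresholds that the methods of the study name. Of all listed genes, 2.01% were lower by as much. By more than 2-fold, the larger threshold, only Cdc6 was lower, beside 0.31% of all genes. The methods pair each threshold with a p-value or FDR cutoff and give the smaller one for spots. Here both describe size alone. No licensing gene was higher by 1.5-fold, beside 3.56% of all genes, or by more than 2-fold, beside 0.662%. The scaling bears on the background, since 505 genes were higher and 286 lower by 1.5-fold as deposited, and 390 and 393 after TMM scaling. With upper-quartile scaling 8 licensing genes were lower by 1.5-fold, and the number over all genes was then 417. Without Cdc6 the median of the other 9 genes was -0.55.

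**Figure D1:**
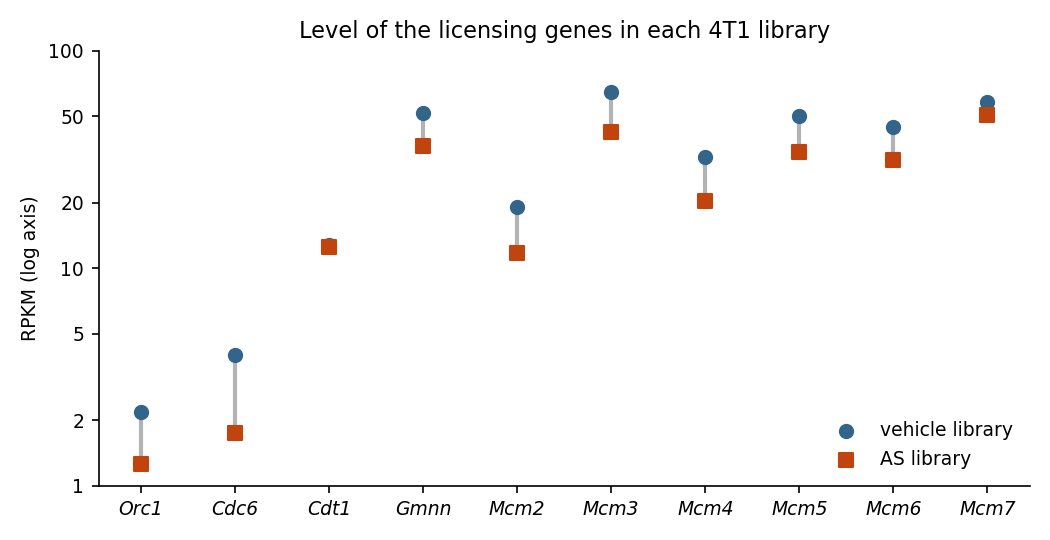
RPKM on a log axis for each licensing gene, with 1 point for the AS library (squares) and 1 for the vehicle library (circles) and a grey line between them. The AS point lies below the vehicle point for every gene, and the points of Cdt1, at 12.6 and 12.8 RPKM, nearly coincide.

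The loading factors Orc1 and Cdc6 had the lowest levels. Cdc6, on chromosome 11 from 98907801 to 98923940 (GRCm38, plus strand), had 1.75 RPKM with AS and 3.98 RPKM with the vehicle. They rest on 411 and 1058 reads. On the log2 scale Cdc6 was at -1.14, and at -1.19 from reads alone, with an interval from -1.35 to -1.02. In the order of all genes from the lowest fold change upward, Cdc6 was number 27. With 1 RPKM added in place of 0.1, its log2 fold change was -0.86, so its place beyond 2-fold depends on the amount added to low values.

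Orc1, on chromosome 4 from 108579423 to 108614833 (plus strand), had 1.26 RPKM with AS and 2.17 RPKM with the vehicle, from 197 and 384 reads. It was the licensing gene with fewest reads. Its log2 fold change of -0.74 had the widest interval, from -1.04 to -0.53, which overlaps those of all but 2 of the other licensing genes. With 1 RPKM added it was -0.49, nearer to 0 than the values of Mcm2 to Mcm6 and Gmnn. The ratio of the Cdc6 level to the Orc1 level was 1.39 with AS and 1.83 with the vehicle. The ratio changed 0.757-fold, with an exact conditional 95% interval of the reads from 0.613 to 0.936, so Cdc6 was lower by more than Orc1 beyond counting error.

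Cdt1 differed least. This gene encodes the factor that carries the helicase to the origin, and lies on chromosome 8 from 122568015 to 122573554 (plus strand). It had 12.6 RPKM with AS and 12.8 RPKM with the vehicle, counted from 1774 and 2038 reads. Its log2 fold change of -0.022 had an interval from -0.11 to 0.071 that includes 0, so as deposited no difference was detectable at this depth. The value was -0.09 after TMM scaling and -0.10 after upper-quartile scaling. The upper-quartile shift of -0.08 is larger in size than the upper limit of 0.071, so the interval would then lie below 0. The E2F match in the Cdt1 promoter window begins after the start, at base 33. Those of Orc1 and Cdc6 begin before the RefSeq start, at bases -27 and -138. The matches of Mcm5 and Mcm6, with log2 fold changes of -0.55 and -0.51, also begin before it. The matches of Mcm3, at -0.61, begin after it, at bases 20 and 39. Mcm7, at -0.20, has matches at bases -165 and 17. Any bearing of these positions on the fold changes was not tested.

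Gmnn, which encodes the inhibitor of CDT1, lies on chromosome 13 from 24751845 to 24761923 (minus strand). It had 36.4 RPKM with AS and 51.8 RPKM with the vehicle, counted from 2394 and 3860 reads. Its log2 fold change was -0.51, with an interval from -0.58 to -0.44, which does not overlap that of Cdt1. The mRNA of the inhibitor was thus lower in the AS library, while that of CDT1 differed by less than counting error with the deposited scaling. The Gmnn mRNA stood 4.06-fold above the Cdt1 mRNA with the vehicle and 2.89-fold above it with AS. The Cdt1 to Gmnn ratio was thus 0.346 with AS and 0.246 with the vehicle, a 1.40-fold higher ratio with an exact conditional 95% interval from 1.29 to 1.52. Set against Cdc6, the other loading factor, Cdt1 also stood apart, and the Cdc6 to Cdt1 ratio was 0.139 with AS and 0.312 with the vehicle.

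**Figure D2:**
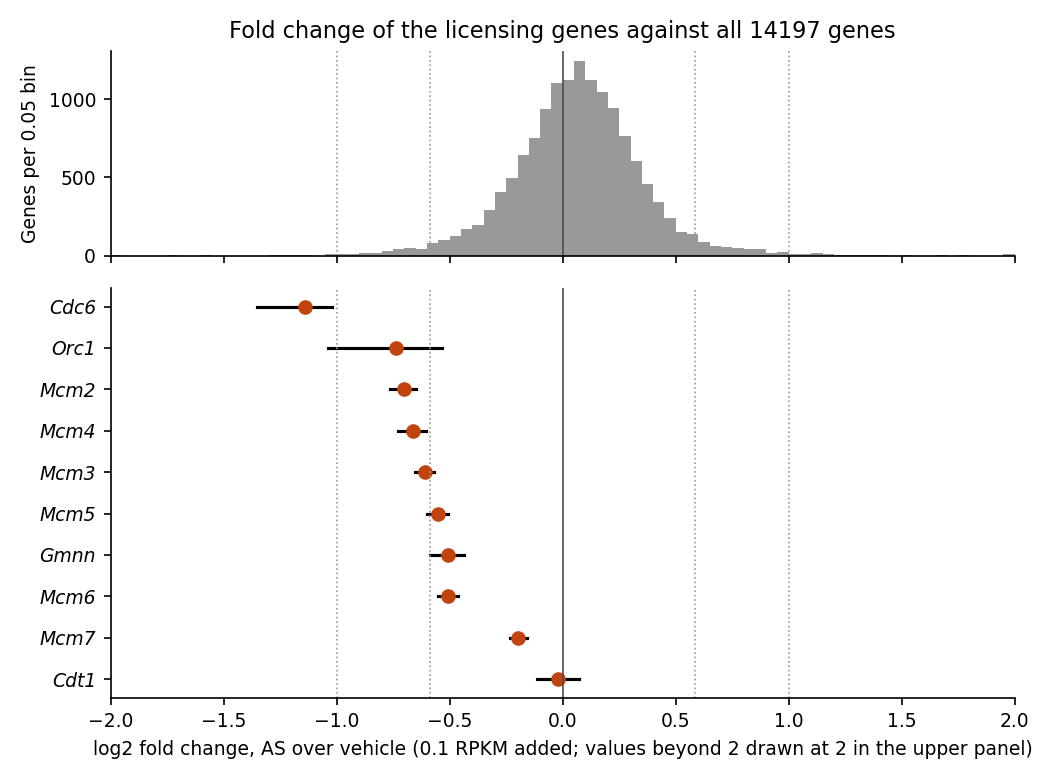
The upper panel is a histogram of the log2 fold change of AS over vehicle for all 14197 genes, and the lower panel gives each licensing gene as a point with its 95% Clopper-Pearson interval of the reads. Dotted lines mark 1.5-fold and 2-fold in both directions. The points of 8 genes lie between -1.14 and -0.51, in the left tail of the histogram, and those of Mcm7 (-0.20) and Cdt1 (-0.022) lie nearer to 0.

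The genes of the helicase ring were lower to unequal degrees. Mcm2, on chromosome 6 from 88883474 to 88898780 (minus strand), had 11.7 RPKM with AS and 19.1 RPKM with the vehicle, from 3661 and 6762 reads. Mcm4, on chromosome 16 from 15623897 to 15637400 (minus strand), had 20.5 RPKM with AS and 32.5 RPKM with the vehicle, from 3299 and 5920 reads. Mcm3, on chromosome 1 from 20802968 to 20820312 (minus strand), had 42.2 RPKM with AS and 64.5 RPKM with the vehicle, from 7114 and 12308 reads. These 3 were the subunits lower by at least 1.5-fold. Their log2 fold changes were -0.70 for Mcm2 (interval from -0.77 to -0.65), -0.66 for Mcm4 (from -0.73 to -0.60) and -0.61 for Mcm3 (from -0.65 to -0.57).

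Mcm5 and Mcm6 lay just short of that threshold. Mcm5, on chromosome 8 from 75109569 to 75128439 (plus strand), had 34.1 RPKM with AS and 50.05 RPKM with the vehicle, from 6112 and 10156 reads. Mcm6, on chromosome 1 from 128331590 to 128359664 (minus strand), had 31.3 RPKM with AS and 44.5 RPKM with the vehicle, from 6556 and 10545 reads. Mcm5 had a log2 fold change of -0.55 (interval from -0.60 to -0.51) and Mcm6 one of -0.51 (from -0.55 to -0.46). The intervals of Mcm5 and Mcm6 overlap each other, and those of Mcm2 and Mcm4 do as well.

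Mcm7 stood apart from the other subunits. It lies on chromosome 5 from 138164583 to 138172422 (minus strand) and had 50.9 RPKM with AS and 58.3 RPKM with the vehicle, from 10109 and 13113 reads. Its log2 fold change was -0.20, with an interval from -0.23 to -0.16 that overlaps that of none of the other 9 licensing genes. Mcm7 had the most reads of the licensing genes, and its interval is the narrowest. Over all 45 pairs of licensing genes, the counting intervals of 30 pairs did not overlap, so the differences within the group were larger than counting error for most pairs. Whether they are larger than the spread between dishes cannot be measured here.

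The MCM proteins join the ring in equal numbers, and their mRNAs were therefore set against each other within each library. Of the summed RPKM of Mcm2 to Mcm7, which was 191 with AS and 269 with the vehicle, Mcm7 made up 26.7% with AS and 21.7% with the vehicle. Mcm3 made up 22.1% and 24.0%, so that by summed exon length Mcm3 was highest with the vehicle and Mcm7 with AS. By the length of the longest transcript Mcm7 was highest in both libraries, at 31.7% with AS and 26.0% with the vehicle, beside 19.3% and 21.1% for Mcm3. Against the reads of the other 5 subunits, Mcm7 was higher by 0.40 on the log2 scale (exact conditional interval from 0.35 to 0.44). Mcm2 was lower against the others by -0.24 (from -0.30 to -0.17), and Mcm6 by -0.014 (from -0.063 to 0.035), which is within counting error. Mcm2 had the smallest share, 6.15% with AS and 7.11% with the vehicle. Its summed exon length in the annotation is 6956 bases and its longest transcript 3494 bases, and with the length of the longest transcript its share was 9.73% and 11.4%. The order of Mcm2 and Mcm4, and that of Mcm3 and Mcm7 with the vehicle, therefore depend on the length used, whereas the fold changes between libraries do not.

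**Figure D3:**
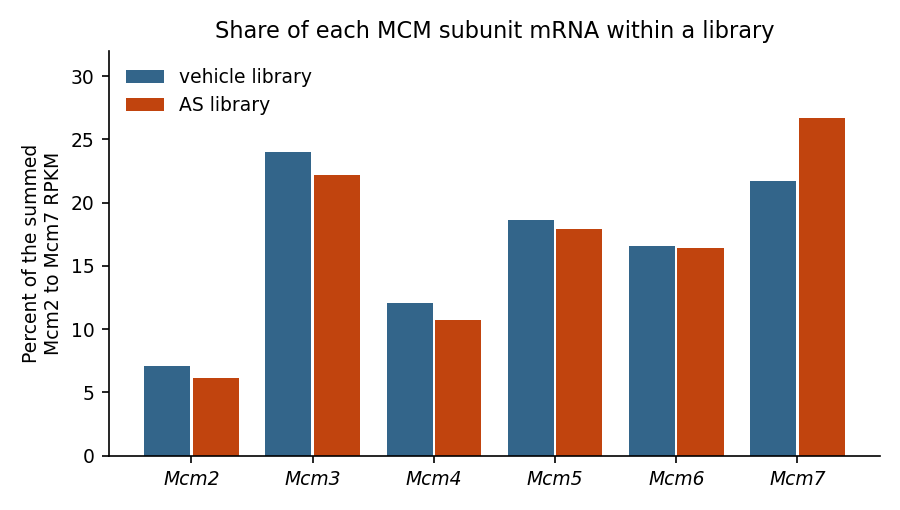
Bars give the percent of the summed Mcm2 to Mcm7 RPKM that each subunit makes up, in the vehicle library and in the AS library. The bar of Mcm7 is higher with AS (26.7% against 21.7%), and the bars of the other 5 subunits are lower.

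Neighbouring genes on the chromosome were read as a check on each locus. Prkdc, the gene of the DNA-dependent protein kinase catalytic subunit, starts 466 bases from Mcm4 on the opposite strand. It had 3.07 RPKM with AS and 2.68 RPKM with the vehicle. Its log2 fold change was 0.19, where that of Mcm4 was -0.66. Prpf38a, a splicing factor gene, starts 87 bases from the GENCODE M21 start of Orc1 on the opposite strand. It had 18.6 and 17.0 RPKM, a log2 fold change of 0.13, where that of Orc1 was -0.74. In both pairs the licensing gene was lower with AS and the gene transcribed away from it was not.

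The Mcm7 locus is more crowded. Ap4m1, an adaptor complex gene, starts 420 bases from the GENCODE M21 start of Mcm7, inside it and on the opposite strand. It shares 321 exon bases with Mcm7. By the RefSeq start used for the E2F positions, Ap4m1 starts upstream of Mcm7. It had 11.7 RPKM with AS and 9.29 RPKM with the vehicle (log2 fold change 0.34). Cops6, a COP9 signalosome gene, shares 64 exon bases with Mcm7 and had 66.02 and 74.98 RPKM, a log2 fold change of -0.18. The libraries were made with a stranded kit, but whether the counting used strand is not given in the sources used here, so the reads in the shared bases are uncertain. Gm12743, an antisense transcript that shares 376 exon bases with Orc1, had 71 reads with AS and 97 with the vehicle. Hmox1, the gene of heme oxygenase and the left neighbour of Mcm5, had a log2 fold change of 0.41. The neighbours not yet named, where listed, lay between -0.11 (Rara, beside Cdc6) and 0.34 (Zfp113, beside Mcm7).

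**Figure D4:**
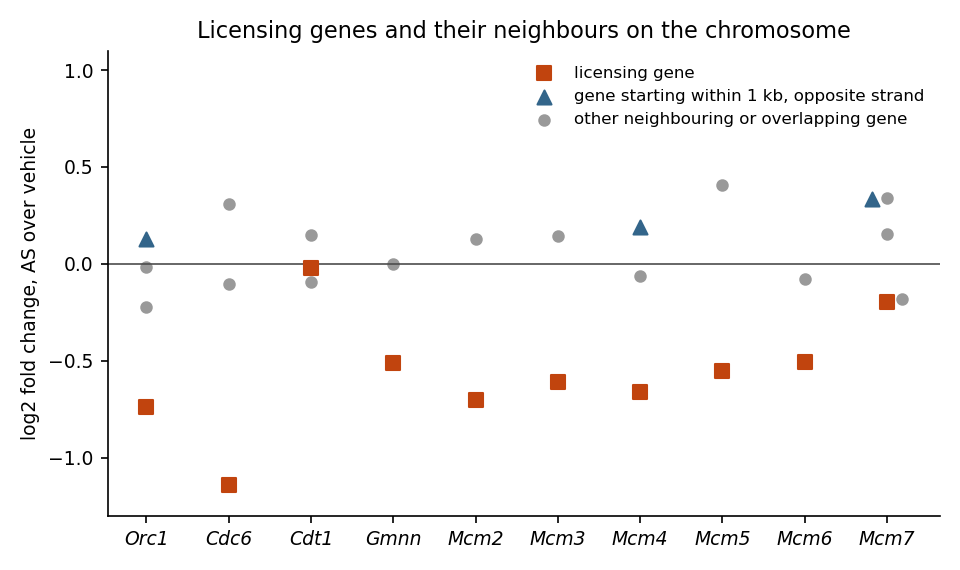
The log2 fold change of AS over vehicle of each licensing gene (squares), of genes that start within 1 kb on the opposite strand (triangles) and of other neighbouring or overlapping genes (circles). The squares of Orc1 and Mcm4 lie at -0.74 and -0.66 and the triangles beside them at 0.13 and 0.19.

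The other genes that recognise origins or assist MCM loading lay on both sides of 0. Of 11 genes in a list written from their roles, all were listed, 5 were below 0 and 6 above, 0 passed 1.5-fold in either direction, and the median log2 fold change was 0.03, which turned to -0.035 after TMM scaling and -0.046 after upper-quartile scaling. The partners of ORC1 in the origin recognition complex differed among themselves. Orc2 had 11.9 RPKM with AS and 8.29 RPKM with the vehicle (log2 fold change 0.51). Orc6 had 22.5 and 28.9 RPKM, a log2 fold change of -0.36. Those of Orc3, Orc4 and Orc5 were -0.06, 0.08 and -0.21. The intervals of Orc3 and Orc4 include 0, and those of Orc5 and Orc6 lie below it. With the TMM shift of -0.07 that of Orc3 would lie below 0 as well. The MCM relatives outside the ring, Mcm8 and Mcm9, had log2 fold changes of -0.08 and 0.19, and Mcmbp, whose product binds MCM proteins, had one of -0.24.

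The genes that turn a licensed origin into a moving fork were between these groups. Of 15 origin firing genes 11 were below 0, 2 were lower by at least 1.5-fold and 0 higher, with a median of -0.28. Cdc7, the kinase that phosphorylates the MCM ring, had 3.08 RPKM with AS and 5.61 RPKM with the vehicle (log2 fold change -0.84, interval from -1.01 to -0.72). Its activating subunit Dbf4 went the other way, at 20.3 and 17.2 RPKM and a log2 fold change of 0.23. Gins2 had 12.2 and 18.4 RPKM and a log2 fold change of -0.59, and Gins1, Gins3 and Gins4, which encode its partners in the GINS complex, had values of -0.47, -0.28 and -0.15. Cdc45, which joins MCM and GINS in the active helicase, had a log2 fold change of -0.28, and Mcm10, a factor for helicase activation, one of -0.43.

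Licensing factors are also controlled by degradation. Of 15 genes of that machinery 0 were lower by at least 1.5-fold and 1 was higher, and the median was -0.25. The higher gene was Fbxo31, which encodes an F-box protein known to target CDT1, with 9.09 RPKM with AS and 5.88 RPKM with the vehicle and a log2 fold change of 0.62. Dtl and Skp2, the substrate receptors of the ligases that remove CDT1 in S phase, had log2 fold changes of -0.34 and -0.42. Pcna, the clamp on which CDT1 is recognised, had 35.7 and 52.0 RPKM and a log2 fold change of -0.54. After TMM scaling, or with 1 RPKM added, Fbxo31 was short of 1.5-fold.

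Of 21 genes of E2F, RB and S-phase CDK control 15 were below 0, and 0 passed 1.5-fold in either direction, with a median of -0.21. E2f1, an activating E2F, had 2.85 RPKM with AS and 4.22 RPKM with the vehicle (log2 fold change -0.55, interval from -0.75 to -0.38), and was the lowest of the list. The other activating E2Fs differed from it, with log2 fold changes of -0.21 for E2f2, whose interval includes 0, and 0.17 for E2f3 (from 0.053 to 0.29). With the TMM shift of -0.07 the interval of E2f2 would lie below 0 and that of E2f3 would include 0. E2f6, a repressive E2F, was highest of the list at 0.41, and E2f7 and E2f8, which also encode repressors, were at -0.50 and -0.46. The 34 genes of the replication fork and nucleotide synthesis, of which Pcna is 1, were all below 0, as the licensing genes were. Of these 7 were lower by at least 1.5-fold (11 after TMM scaling, 4 with 1 RPKM added) and 0 higher, with a median of -0.39. Rrm2, a ribonucleotide reductase subunit, was the lowest at -0.80, from 9.32 RPKM with AS and 16.3 RPKM with the vehicle. Tk1, Lig1, Uhrf1, Dna2 and Rfc3 followed at -0.70, -0.69, -0.69, -0.68 and -0.62. Of 27 mitotic genes 24 were below 0 and 0 passed 1.5-fold, with a median of -0.14. The differences between the medians of these lists were not tested, since genes of 1 library pair are not replicates.

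**Figure D5:**
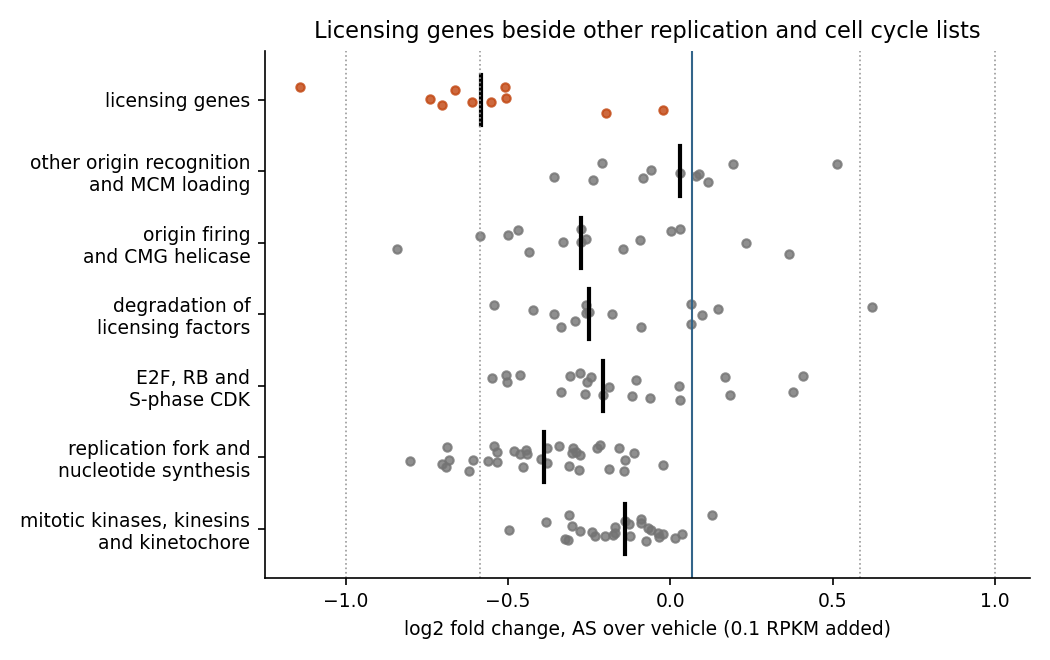
Each point is the log2 fold change of AS over vehicle of 1 gene, in rows by list and spread vertically at random, with a black bar at the median of the list, a blue line at the median of all genes (0.07) and dotted lines at 1.5-fold and 2-fold. The median of the licensing genes lies at -0.58, that of the fork and nucleotide genes at -0.39 and that of the other origin recognition and loading genes at 0.03 (below 0 after TMM, median-of-ratios or upper-quartile scaling).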

How the data were processed

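RNA-seq was made from 1 AS and 1 vehicle library. The authors deposited RPKM per gene and library, a log2 of the mean CPM, and 3 columns of their own comparison (fold change, p-value and FDR), which were not used. The submitters' processing notes name fastp 0.23.4, STAR 2.5.3a and featureCounts, and a human build for these mouse cells. The unit is not named in the table and was found from its values. RPKM times the GENCODE M21 (GRCm38) exon length and 1 library size (44909683 for AS, 50820728 for the vehicle) gave whole reads, within 0.01, at an exon length equal to the annotated one for 94.2% of 13502 symbols with 1 entry. For other genes the length was found from the mean CPM. All 10 licensing genes were recovered at their annotated length. No gene was listed at 0, and the lowest mean was 29.5 reads.

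The genes and lists were chosen with earlier results of these data known. Named were all licensing genes, in each list genes past 1.5-fold (up to 6), genes whose role sets them beside a licensing gene, and neighbours on the chromosome. The marker genes given with values, and E2f2, E2f3, E2f6, E2f7, E2f8, Pclaf, 4930447F24Rik, D17H6S56E-5 and Msh5, were chosen after their values were seen. Reads without molecular identifiers are not independent molecules. Recovery, intervals and TMM were tested on simulated data with independent reads, so the effect of such dependence on the intervals was not tested. Alternatives were 0 or 1 RPKM added, scaling by TMM, upper quartile or median of ratios, a minimum mean of 1 RPKM, the longest transcript's length, and promoter bases before the start. Python 3.11 and SciPy were used.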

Additional observations from a re-analysis of the deposited data

How the results depend on the processing

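The alternatives could not turn the direction of a licensing gene, since an added amount keeps the sign, the filter leaves values as they are and the scalings moved every gene downward. The median log2 fold change of the licensing genes was -0.52 with 1 RPKM added, -0.65 with TMM, -0.65 with median of ratios and -0.66 with upper-quartile scaling, beside -0.58. With 1 RPKM added, 0 genes were lower by more than 2-fold, since Cdc6 moved to -0.86. With upper-quartile scaling 8 licensing genes were lower by at least 1.5-fold, in place of 5, and 417 of all genes, in place of 286. The scalings shifted all genes alike, by -0.07 for TMM and -0.08 for the upper quartile. Intervals are given as deposited, so whether an interval with a limit near 0 includes 0 can depend on the scaling.

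With the length of the longest transcript, the share of the MCM2 to MCM7 mRNAs with AS and with the vehicle was 9.73% and 11.4% for Mcm2, 19.3% and 21.1% for Mcm3, 8.54% and 9.69% for Mcm4, 16.8% and 17.6% for Mcm5, 14.0% and 14.2% for Mcm6, and 31.7% and 26.0% for Mcm7. The Cdt1 to Gmnn ratio was then 0.310 with AS and 0.221 with the vehicle. By construction, length alters levels and leaves fold changes as they are. Of 255 values recomputed in all, 182 stayed within their bounds or within 1.5 times the count and 73 moved. For medians the bounds were the medians of the genes' interval limits, which are not a counting interval of the median. The median of the other origin recognition and loading genes changed sign, from 0.031 to -0.035 with TMM, -0.035 with median of ratios and -0.046 with the upper quartile, as did that of all genes with the upper quartile, from 0.066 to -0.011. With 1 RPKM added, 130 genes of the table were lower and 189 higher by 1.5-fold, 16 lower and 38 higher by 2-fold. With 0 added 161 were higher by 2-fold, and 336 were higher by 1.5-fold among genes with a mean of at least 1 RPKM. Under each of the 3 scalings 1 gene of the E2F, RB and CDK list and 1 of the degradation list were lower by 1.5-fold, in place of 0, and with 1 RPKM added 1 origin firing gene was, in place of 2. No paired analysis was possible because each condition has 1 library, and for the same reason no library could be left out.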

Other observations

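The E2F letters were also read across the table, a description chosen after the licensing genes had been seen. Of 9680 genes with a promoter window 475 (4.91%) held a match. Their median log2 fold change was 0.028, and 222 of them (46.7%) were below 0, beside a median of 0.076 and 37.2% below 0 for the 9205 genes without a match. Of the genes with a match 10 (2.11%) were lower by at least 1.5-fold, and of those without one 132 (1.43%). Outside the written lists, which hold many S-phase genes, 445 genes held a match, with a median of 0.039. Of them 4 (0.899%) were lower and 7 (1.57%) higher by at least 1.5-fold. The 4 lower genes were 4930447F24Rik, Pclaf, D17H6S56E-5 and Msh5, with log2 fold changes of -1.11, -0.78, -0.78 and -0.74. Pclaf encodes a factor that binds the PCNA clamp. Matches were held by 8 of 29 fork and nucleotide genes with a window (27.6%), by 8 of 16 genes of E2F, RB and CDK control, and by 0 of 23 mitotic genes. Within the fork and nucleotide list, the median was -0.49 for the genes with a match and -0.44 for the 21 genes without one. It was also lower with a match in the other origin recognition list (-0.083 beside 0.084). The same held for degradation (-0.31 beside -0.18) and for E2F, RB and CDK control (-0.25 beside -0.11). It was higher with a match for origin firing (-0.27 beside -0.33). So it was among the licensing genes, at -0.55 for 7 genes beside -0.70 for Mcm2. No test was run on these values.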
